A study of Homo sapiens with 18 samples.

Results

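SH-SY5Y is a human neuroblastoma line, with noradrenergic and neuron-like features, and sarin is a nerve agent, an organophosphate, whose main target is the enzyme acetylcholinesterase. The values described here are the sarin effect at 24 h minus the sarin effect at 3 h, where an effect is the mean log2 signal of sarin-exposed cells minus that of untreated cells at the same time. The difference of the 2 effects equals the change between 3 and 24 h in sarin-exposed cells minus the change in untreated cells. It was computed for each of 7178 genes from 12 of the 18 arrays of the series. The 4 groups, each with 3 Affymetrix oligonucleotide arrays of total RNA, were cells exposed to sarin at 5 ppm for 24 h, cells exposed at 5 ppm for 3 h, untreated cells at 24 h and untreated cells at 3 h. A further 3 arrays of untreated cells at 48 h were used to place the untreated values. All groups are of 1 cell line, with 6 flasks of cells named beside the 3 arrays of each group, and no label says that arrays came from separate cultures. P-values therefore measure only how these arrays vary, and that variation may be technical.

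A single time point cannot tell a gene that moved in exposed cells from one that stayed level there while untreated cells moved. The design separates them, because each treatment has its own arrays at 3 h. Cells in a flask can change with hours in culture, as medium is used and density grows, and such changes can occur in either condition. Whether they were alike in both was not tested. Sterol and fatty acid synthesis, which recurs below, is driven in human cells by SREBP transcription factors that are released when membrane cholesterol is low. Glycolysis breaks glucose down to pyruvate, and many of its genes are also targets of the hypoxia-inducible factors.

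Signals on all 12 arrays were scaled to a common trimmed mean, 799.9 to 800.3. The groups still differed in other measures, and these differences move with the results below. The ratio of 3′ to 5′ GAPDH signal, which rises as RNA breaks, was 1.05 to 1.17 in sarin-exposed cells at 24 h, 0.784 to 0.87 in sarin-exposed cells at 3 h, 0.811 to 0.941 in untreated cells at 24 h and 0.696 to 0.999 in untreated cells at 3 h. The median signal was 314.9 to 345.3 in sarin-exposed cells at 24 h, 290.2 to 339.7 in sarin-exposed cells at 3 h, 397 to 413.9 in untreated cells at 24 h and 310.2 to 339.2 in untreated cells at 3 h. The same ratio for ACTB was 1.56 to 1.64 in sarin-exposed cells at 24 h, 0.833 to 0.955 in sarin-exposed cells at 3 h, 1.46 to 1.5 in untreated cells at 24 h and 0.79 to 1.14 in untreated cells at 3 h. It thus moved with the change over time in both conditions, without overlap, and its part in those changes was not tested. The GAPDH ratio was tried as a covariate, and the part of the median signal was not tested. Replicates 2 and 3 of untreated cells at 3 h stood apart, and the arrays of that group correlated with each other at 0.9 to 0.941, against 0.945 to 0.978 within the other groups. Genes of high and low signal also moved differently: from the lowest to the highest of 5 equal groups by level, the median change in untreated cells ran from 0.373 to -0.17 and the median difference of differences from -0.237 to 0.18. By most markers the cells matched their label. Of 12 noradrenergic markers on the array, 11 were above background on all 12 arrays, and TH was at background on all of them. The noradrenergic markers summed to a signal of 113714 to 115250 in sarin-exposed cells at 24 h and 86790 to 89760 in sarin-exposed cells at 3 h. In untreated cells they summed to 100378 to 112029 at 24 h and 92730 to 112600 at 3 h. Glial markers summed to at most 911 in any group.

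The difference was called at an adjusted p under 0.05 by limma for 76 of 7178 genes (1.06%), 39 with a positive difference (0.543%) and 37 with a negative one (0.515%). In the same fit 815 genes (11.4%) changed between 3 and 24 h in sarin-exposed cells, 408 higher (5.68%) and 407 lower (5.67%), and 504 (7.02%) in untreated cells, 285 higher (3.97%) and 219 lower (3.05%). A total of 148 genes changed in both, 140 in the same direction, which is 18.2% of the sarin-exposed list and 29.4% of the untreated list. At a single time, 856 genes (11.9%) differed between sarin-exposed and untreated cells at 24 h, 440 higher (6.13%) and 416 lower (5.8%), and 1 gene (0.0139%) at 3 h. That gene, named after its value was seen, was FOSL2, a partner of JUN in the AP-1 factor, with an effect of 1.54 ± 0.24 at 24 h and 1.75 ± 0.24 at 3 h and a difference of -0.22 ± 0.34 (adjusted p = 0.807). Of the 856, 73 (8.53%) were also called for the difference between the times. At an unadjusted p under 0.05 the difference was met by 1144 genes.

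Sarin-exposed cells carried most of the called differences. Among the 76 genes, 52 (68.4%) had a called change over time in sarin-exposed cells and none in untreated cells, with 26 higher and 26 lower. For 12 genes (15.8%) the change was called in untreated cells alone, 7 with a positive and 5 with a negative difference. In 8 genes (10.5%) both conditions were called and moved in opposite directions, and in 4 (5.26%) both moved the same way by unequal amounts. A change past the threshold in one condition and not in the other is a class, and the test of the difference itself is the one that all 76 passed. By size, the change in sarin-exposed cells was over 2 times that in untreated cells, on the log2 scale, in 40 genes, the reverse held in 6, and the rest lay between. The size of the effect was larger at 24 h than at 3 h in 70 of the 76, values of the same contrast that chose them. With the GAPDH ratio as a covariate 62 genes were called, among them 21 of the 76: 14 of the 52, 2 of the 12, 4 of the 8 and 1 of the 4.

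**Figure D1:**
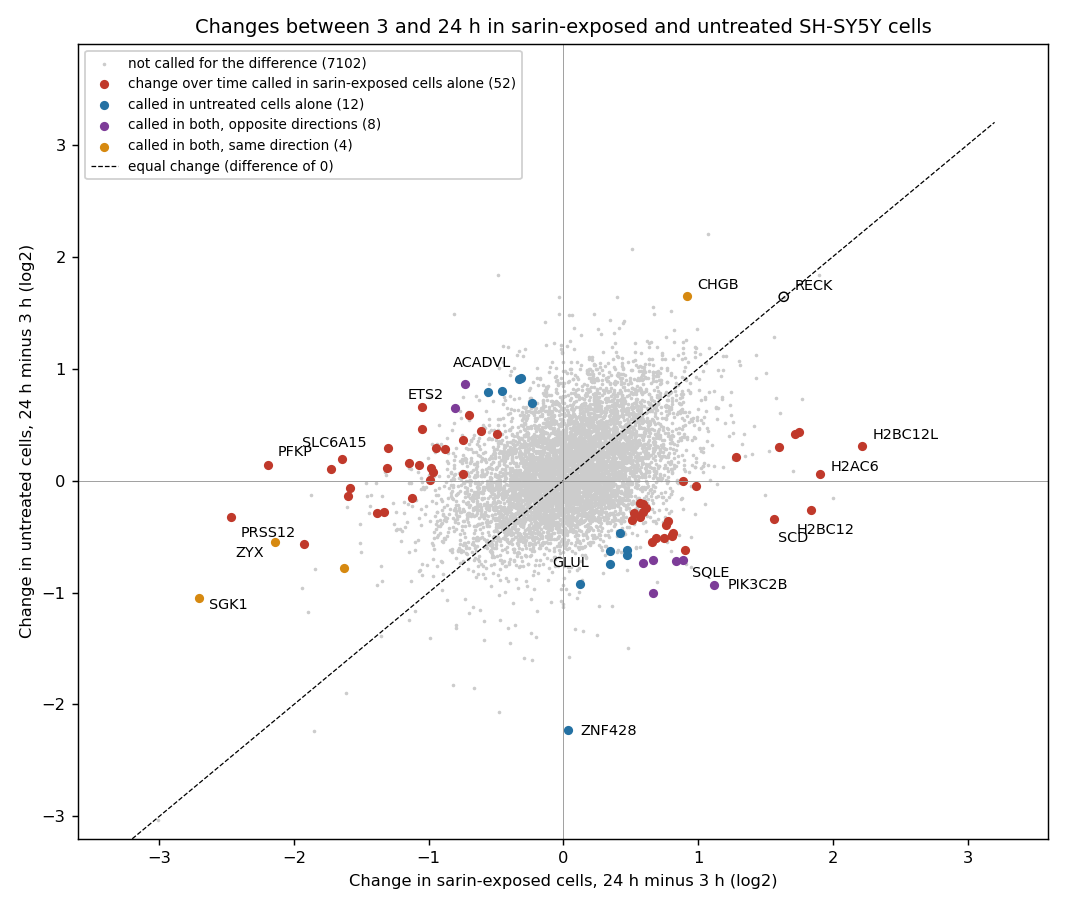
Change between 3 and 24 h in sarin-exposed cells (x axis, log2) against that in untreated cells (y axis, log2), 1 point for each of 7178 genes, with the 76 called genes coloured by class and the dashed line marking equal change. The 52 red points lie to the left and right, with untreated changes from -0.62 (GINS4) to 0.65 (BACH2) that missed the threshold. The 12 blue points lie above and below the centre, and RECK, not called and ringed, lies on the line of equal change.

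Of the 23 gene lists examined, cholesterol and fatty acid synthesis held the most called genes, and they came from 3 of the classes. SCD is the gene of stearoyl-CoA desaturase, which puts a double bond into saturated fatty acids. Its signal was 3181, 3389 and 2985 in sarin-exposed cells at 24 h, 1000.2, 1098 and 1098 in sarin-exposed cells at 3 h, 809, 769.5 and 724 in untreated cells at 24 h and 907, 972 and 1051 in untreated cells at 3 h. The 3 exposed arrays at 24 h stood well above the other 9, which lay close together. The log2 change between the times was 1.57 ± 0.14 (SE) in sarin-exposed cells and -0.34 ± 0.14 in untreated cells (adjusted p = 4.03e-06 and 0.138), a difference of 1.91 ± 0.20 (adjusted p = 0.000215). The other 3 probe sets of SCD, all dimmer, had differences of 0.99, -0.12 and 0.06, and with the mean of its probe sets SCD was at 0.71 and not called (adjusted p = 0.288).

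SQLE, which encodes squalene epoxidase, an early and rate-limiting step of the sterol branch, moved in both conditions. Its signal was 6344, 5686 and 5901 in sarin-exposed cells at 24 h and 2942, 3303 and 3433 at 3 h, and 2045, 2908 and 2185 in untreated cells at 24 h and 3538, 3739 and 4363 at 3 h. It rose 1.85-fold in exposed cells and fell 1.64-fold in untreated cells, so that nearly as much of the difference of 1.60 ± 0.21 (adjusted p = 0.0012) came from the untreated arrays as from the exposed ones. MSMO1, a sterol C4-methyl oxidase gene, had the same pattern, with changes of 0.83 ± 0.20 and -0.72 ± 0.20 and a difference of 1.55 ± 0.28 (adjusted p = 0.0108). Within each condition the 24 h and 3 h arrays of both genes did not overlap.

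The enzymes on either side of these steps were called in 1 condition only. ACAT2, whose product makes acetoacetyl-CoA for the pathway, had a signal of 4124 ± 117 (SD, n = 3) in sarin-exposed cells at 24 h, 2354 ± 125 in exposed cells at 3 h, 1563 ± 208 in untreated cells at 24 h and 2218 ± 515 in untreated cells at 3 h. Its change was 0.81 ± 0.16 in exposed cells and -0.48 ± 0.16 in untreated cells, where it missed the threshold (adjusted p = 0.0678). HMGCS1, the HMG-CoA synthase gene, had a called change of -0.66 ± 0.17 in untreated cells and one of 0.47 ± 0.17 in exposed cells that missed it (adjusted p = 0.0887). Both genes had values above 0 in exposed cells and below 0 in untreated cells, so their class turns on small margins. HSD17B7, a sterol ketoreductase gene named here after its values were seen, rose by 1.28 ± 0.18 in exposed cells, with 0.21 ± 0.18 in untreated cells. HMGCS1 and HSD17B7 passed in 4 and 2 of the 12 fits that each left out 1 array (highest adjusted p = 0.102 and 0.141), while SCD, SQLE, MSMO1 and ACAT2 passed in all 12.

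Of 29 tested members of the cholesterol and fatty acid list, 6 (20.7%) had a called positive difference and 0 a negative one, against 0.543% and 0.515% of all genes. The list's median difference was 0.54, against -0.04 over all genes, and 26 of 29 values were above 0. Its median change was 0.47 in sarin-exposed cells and -0.12 in untreated cells. In exposed cells 10 members were higher and 0 lower, against 5.68% and 5.67% of all genes. In untreated cells 1 was higher and 3 were lower, against 3.97% and 3.05%. Among 3 genes named after their values were seen, FASN, the fatty acid synthase gene, had a difference of 1.07 ± 0.28 (adjusted p = 0.0741). SREBF1 and SREBF2, the genes of the SREBP factors, had differences of 0.04 ± 0.35 and 0.13 ± 0.35 (adjusted p = 0.965 and 0.89), with errors wider than the values. Under 3 other scalings of the arrays, 6 members were called with quantile normalization, 7 with median centring and 0 with the spike-ins. The spike-in scaling called 3 genes of all, and the list's median change in exposed cells was then -0.29, against -0.70 over all genes. The median difference of the list stayed between 0.50 and 0.77 under these 3 scalings. With the GAPDH ratio as a covariate it was 0.82, with 5 members called, and since that ratio did not overlap between exposed cells at 24 h and the other groups, ratio and exposure at 24 h cannot be told apart.

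The stretches before the start sites of SCD, MSMO1 and HMGCS1, 1 gene of each class, are shown because the 3 genes are enzymes of lipid synthesis and all hold the CCAAT box, the site of the factor NF-Y. Each line gives the 250 bases before the annotated start on the gene's own strand, from RefSeq on GRCh38.p14, with CCAAT or its reverse complement in capitals.
SCD: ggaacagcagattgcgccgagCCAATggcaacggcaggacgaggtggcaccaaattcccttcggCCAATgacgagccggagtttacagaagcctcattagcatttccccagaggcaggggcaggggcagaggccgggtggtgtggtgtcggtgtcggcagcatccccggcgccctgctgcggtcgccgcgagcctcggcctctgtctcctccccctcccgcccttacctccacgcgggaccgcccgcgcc
MSMO1: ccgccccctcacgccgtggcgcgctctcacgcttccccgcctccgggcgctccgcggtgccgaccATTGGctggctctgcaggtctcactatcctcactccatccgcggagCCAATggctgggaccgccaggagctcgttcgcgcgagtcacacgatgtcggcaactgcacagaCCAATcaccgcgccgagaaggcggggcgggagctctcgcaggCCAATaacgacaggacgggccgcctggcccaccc
HMGCS1: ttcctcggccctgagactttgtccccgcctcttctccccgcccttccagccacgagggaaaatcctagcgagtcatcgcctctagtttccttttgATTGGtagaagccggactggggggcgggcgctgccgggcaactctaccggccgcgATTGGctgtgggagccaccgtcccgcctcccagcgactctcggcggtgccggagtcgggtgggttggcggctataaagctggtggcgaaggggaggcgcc
The SCD stretch lies on the plus strand of chromosome 10 (chr10:100346983-100347232), that of MSMO1 on the plus strand of chromosome 4 (chr4:165327419-165327668) and that of HMGCS1, the first of 2 windows in the table, on the minus strand of chromosome 5 (chr5:43313413-43313662). They hold 2, 4 and 2 CCAAT boxes. Over both strands, the box was in the windows of 18 of 33 called genes with a positive difference (54.5%), 7 of 32 with a negative one (21.9%) and 2611 of 6002 tested genes (43.5%), counting genes with a window in the table. The sterol regulatory element, searched as TCACNCCAC, was in 0 of the 33 and 81 of the 6002 (1.35%). No match says only that these letters are not in the window.

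Among genes called in sarin-exposed cells alone, the largest positive difference was that of a histone gene. Replication-dependent histone genes are transcribed mainly during DNA synthesis, and their usual transcripts lack a poly(A) tail. H2BC12, which encodes histone H2B, had a signal of 6047, 5143 and 5106 in sarin-exposed cells at 24 h and 1243, 1665 and 1641 at 3 h, against 1117, 2131 and 1818 in untreated cells at 24 h and 1899.9, 2272 and 1757 at 3 h. Its change was 1.84 ± 0.20 in exposed cells and -0.27 ± 0.20 in untreated cells, a difference of 2.11 ± 0.28 (adjusted p = 0.00145). The untreated arrays of the 2 times overlapped.

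H2AC6, an H2A gene, had 1049, 1179 and 1303 in sarin-exposed cells at 24 h and 471, 240.4 and 241 at 3 h, against 461, 571 and 530.0 in untreated cells at 24 h and 414, 721 and 413 at 3 h. Replicates 2 and 3 of exposed cells at 3 h were the lowest of the 12 arrays, and its effect was 1.15 ± 0.27 at 24 h and -0.70 ± 0.27 at 3 h. The H2B genes H2BC12L and H2BC5 had differences of 1.91 ± 0.39 and 1.32 ± 0.24. Of 42 histone genes on the array, a list chosen after the values were seen, 12 passed the level filter and were tested. That filter averaged all 12 arrays, the exposed ones at 24 h included. H2BC12L had mean signals of 299.7, 355.5 and 275 in the other 3 groups, near the filter's 301. Of the 12 genes tested, 4 had a called positive difference and 0 a negative one, against 0.543% and 0.515% of all genes. In sarin-exposed cells 7 rose, against 5.68% of all genes, and 0 fell. In untreated cells 0 passed either way, where 3.97% of all genes rose and 3.05% fell. The median difference was 0.65, and the median change 1.26 in exposed and 0.23 in untreated cells. Several of these probe sets may also bind near-identical histone copies, so the symbols are uncertain. H2BC12 and H2BC5 passed in all 12 fits that left out 1 array, and H2BC12L and H2AC6 in 4 each (highest adjusted p = 0.0965 and 0.0882).

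Genes of the DNA replication and mitosis lists had 0 members called for the difference, a count near the 1.06% of all genes for lists of this size. The shares of all genes that rose and fell were 5.68% and 5.67% in exposed cells, and 3.97% and 3.05% in untreated cells. Of 43 replication genes 1 rose and 3 fell in sarin-exposed cells, and 0 rose and 5 fell in untreated cells. Of 39 mitosis genes 0 rose and 8 fell in exposed cells, and 0 rose and 6 fell in untreated cells. The proliferation marker MKI67 had changes of -0.52 ± 0.14 in exposed and -0.45 ± 0.14 in untreated cells (adjusted p = 0.0232 and 0.0596), a difference of -0.07 ± 0.20. GINS4, a subunit of the replicative helicase, was called with a difference of 1.53 ± 0.35, though it passed in 3 of the 12 fits that left out 1 array (highest adjusted p = 0.121).

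The stretches before H2BC12 and H2AC6 are shown for the same box, in the same format.
H2BC12: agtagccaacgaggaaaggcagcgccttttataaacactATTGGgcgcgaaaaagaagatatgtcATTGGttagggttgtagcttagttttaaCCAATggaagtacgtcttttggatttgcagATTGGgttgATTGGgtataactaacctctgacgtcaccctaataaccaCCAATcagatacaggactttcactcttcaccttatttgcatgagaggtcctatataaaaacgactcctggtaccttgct
H2AC6: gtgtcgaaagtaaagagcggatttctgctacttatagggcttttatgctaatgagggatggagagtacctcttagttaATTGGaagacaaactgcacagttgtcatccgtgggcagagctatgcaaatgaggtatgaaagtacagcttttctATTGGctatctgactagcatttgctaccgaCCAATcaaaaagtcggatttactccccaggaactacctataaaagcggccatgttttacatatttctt
They lie on chromosome 6, that of H2BC12, the first of 2 windows, on the minus strand (chr6:27146859-27147108) and that of H2AC6 on the plus strand (chr6:26123922-26124171). They hold 6 and 3 CCAAT boxes.

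Of 20 glycolytic genes, 2 rose and 8 fell in sarin-exposed cells, where 5.68% and 5.67% of all genes did. In untreated cells 1 rose and 0 fell, counts near the 3.97% and 3.05% of all genes. PFKP, the platelet isoform of phosphofructokinase, which commits glucose to glycolysis, had the largest negative difference of all 7178 genes past the threshold. Its signal was 1201, 1099.7 and 831 in sarin-exposed cells at 24 h and 4095, 5061 and 5226 at 3 h, against 4173, 4724 and 4830.2 in untreated cells at 24 h and 4721, 4857 and 3129 at 3 h. All 9 arrays of the other groups lay above 3000 and the 3 exposed arrays at 24 h lay near 1000. The change was -2.19 ± 0.18 in exposed cells and 0.14 ± 0.18 in untreated cells, a difference of -2.33 ± 0.25 (adjusted p = 0.00023).

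The other 3 called members belong to other steps of the pathway. GPI, which makes fructose 6-phosphate, had a signal of 3271 ± 268 in sarin-exposed cells at 24 h and 6515 ± 1010.0 at 3 h, and 5861 ± 541 in untreated cells at 24 h and 5421 ± 122 at 3 h (SD, n = 3). ENO2, the neuronal enolase, had a change of -0.74 ± 0.13 in exposed cells and 0.36 ± 0.13 in untreated cells (adjusted p = 0.0841). ALDOC, the brain aldolase, had changes of -1.12 ± 0.16 in exposed and -0.16 ± 0.16 in untreated cells, and passed in 3 of the 12 fits that left out 1 array (highest adjusted p = 0.131). Their differences were -1.09, -1.11 and -0.97. AK4, a mitochondrial adenylate kinase, had the same shape, with a signal of 922 ± 83.1 in exposed cells at 24 h, 1931 ± 267 in exposed cells at 3 h, 3277 ± 369 in untreated cells at 24 h and 2418 ± 674 in untreated cells at 3 h, and a difference of -1.51 ± 0.25.

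Of 20 glycolysis genes tested, 0 had a positive and 4 (20%) a negative called difference, against 0.515% of all genes. The median difference was -0.64, with 5 of 20 values above 0. In sarin-exposed cells 2 members rose and 8 fell, against 5.68% and 5.67% of all genes. In untreated cells 1 rose and 0 fell, against 3.97% and 3.05%. The members did not all move together, as 2 genes named after their values were seen show. HK2, an inducible hexokinase, rose by 0.65 ± 0.16 in exposed cells with 0.11 ± 0.16 in untreated cells, and the glucose transporter gene SLC2A1 rose by 0.77 ± 0.17 and 0.72 ± 0.17, a difference of 0.05 ± 0.23. The 22 other hypoxia-inducible genes had a median of -0.44 and 0 calls in either direction, with EGLN1, an oxygen-sensing hydroxylase, closest at -1.14 ± 0.27 (adjusted p = 0.0529). Their median was -0.21 under median centring and -0.07 when the GAPDH ratio was a covariate. The glycolysis median lay between -0.85 and -0.41 under the 3 other scalings, with 10 members called lower under quantile normalization, 2 under median centring and 1 with the spike-ins. The glycolysis median was -0.95, with 3 members called, when the GAPDH ratio was a covariate.

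**Figure D2:**
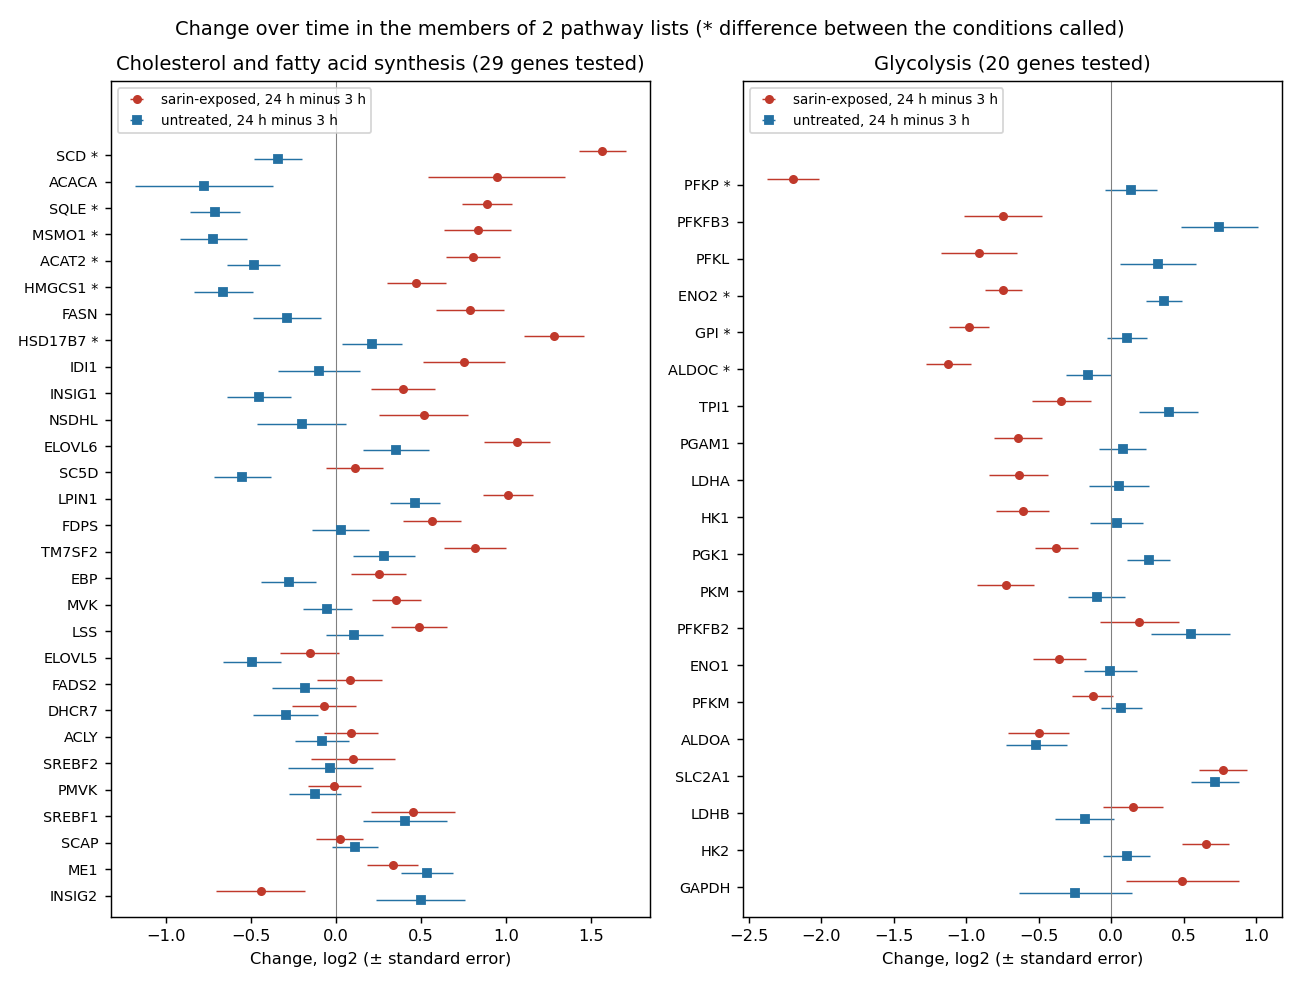
Change between 3 and 24 h (x axis, log2, with standard errors) of the tested members of 2 pathway lists, in sarin-exposed cells (red circles) and untreated cells (blue squares), with genes called for the difference starred. In the lipid list (29 genes) the red points lie to the right of the blue ones in 26, and in glycolysis (20 genes) to the left in 15.

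After PFKP, the largest negative difference in this class was that of PRSS12. It encodes neurotrypsin, a serine protease released at synapses. Its signal was 875, 777 and 929.5 in sarin-exposed cells at 24 h and 4903, 4609 and 4933 at 3 h, against 3755, 4208 and 4958 in untreated cells at 24 h and 3997, 6995 and 5525 at 3 h. It fell 5.52-fold in exposed cells, with a change of -0.33 ± 0.17 in untreated cells, a difference of -2.14 ± 0.25 (adjusted p = 0.000311). SLC6A15, a neutral amino acid transporter of neurons, had 366, 481 and 245 in exposed cells at 24 h and 1070.2, 1157 and 1172 at 3 h, against 1257, 1159 and 1013 in untreated cells at 24 h and 1027, 1296 and 741 at 3 h. For PRSS12 no array of the other 3 groups came near the exposed arrays at 24 h. For SLC6A15 the groups did not overlap, but the nearest array, 741 in untreated cells at 3 h, was closer to the highest exposed one, 481. DYNC1H1, the heavy chain of the cytoplasmic dynein motor, went the other way, with a change of 1.72 ± 0.16 in exposed and 0.42 ± 0.16 in untreated cells. Its effect was 0.61 ± 0.16 at 24 h and -0.69 ± 0.16 at 3 h.

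CDH11, a cadherin, had a signal of 624 ± 52.3 in sarin-exposed cells at 24 h and 1904 ± 215 at 3 h, against 1604 ± 349 in untreated cells at 24 h and 1676 ± 302 at 3 h, a difference of -1.52 ± 0.26 (adjusted p = 0.00918). PTPRF, a receptor phosphatase of cell contacts, had a difference of -1.41 ± 0.20 and NID1, a basement membrane linker, one of -1.46 ± 0.31, both named after their values were seen. COL6A2, a collagen VI chain, had one of -1.06 ± 0.23. Zyxin, ZYX, which sits at focal adhesions, is described below with the genes that moved in both conditions. NID1 and COL6A2 passed in 4 of the 12 fits that left out 1 array (highest adjusted p = 0.0947 for each), and the second COL6A2 probe set had a difference of 0.35.

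Markers of substrate-adherent cells, the flat cell type that neuroblastoma lines can hold beside the neuronal one, were followed as a list. Of 31 tested, 0 had a positive and 1 a negative called difference, near the share of all genes, with a median of -0.25 against -0.04 over all genes. Under median centring these medians were -0.02 and 0.19. In sarin-exposed cells 0 rose and 8 fell, against 5.67% of all genes that fell. Among the 8 was S100A10, an annexin partner with an effect of -1.17 ± 0.23 at 24 h. In untreated cells 1 rose and 3 fell, against 3.97% and 3.05% of all genes. The 11 defining markers summed to a signal of 38499 to 39691 in sarin-exposed cells at 24 h, 57263 to 63058 in sarin-exposed cells at 3 h, 59149 to 60874 in untreated cells at 24 h and 55677 to 103116 in untreated cells at 3 h. VIM, 1 of these markers, was bright beside the sum. Its signal was 18015 to 19315 in sarin-exposed cells at 24 h and 27192 to 29319 at 3 h. In untreated cells it was 22203 to 25186 at 24 h and 22178 to 52122 at 3 h. The VIM difference was -0.19 ± 0.34 (adjusted p = 0.831). In these bulk samples, fewer cells of a type and less RNA per cell cannot be told apart. The part of these markers in the fall of CDH11 was not tested.

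Other genes of this class have roles in transcription and protein handling. ENY2, a subunit of the SAGA coactivator and of an mRNA export complex, had a signal of 5560.0 ± 215 in sarin-exposed cells at 24 h and 3171 ± 154 at 3 h, against 2641 ± 529 in untreated cells at 24 h and 3743 ± 788 at 3 h, a difference of 1.30 ± 0.23. PSMC2, an ATPase of the proteasome cap, and SERPINH1, the collagen chaperone, had differences of 1.21 ± 0.23 and 1.25 ± 0.26. The second PSMC2 probe set had a difference of 0.1. FLRT3, a membrane protein of cell contacts and axon guidance, rose 3.03-fold in exposed cells. The ubiquitin ligase gene RNF126, the transcriptional repressor gene BACH2 and MACROD1, which encodes an ADP-ribose hydrolase, had differences of -1.83 ± 0.38, -1.70 ± 0.38 and -1.60 ± 0.32. ENY2 passed in all 12 fits that left out 1 array, and PSMC2, SERPINH1, FLRT3, RNF126, BACH2 and MACROD1 in 3 to 8 (highest adjusted p = 0.105, for BACH2). POM121C, a nuclear pore gene named for its exception at 24 h after values were seen, was called although its effect at 24 h was not: it was -0.36 ± 0.17 at 24 h (adjusted p = 0.163) and 0.80 ± 0.17 at 3 h.

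Of these 52 genes, SCD, H2BC12, H2AC6, PFKP, PRSS12 and ENO2 were among the 14 still called with the GAPDH ratio as a covariate.

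**Figure D3:**
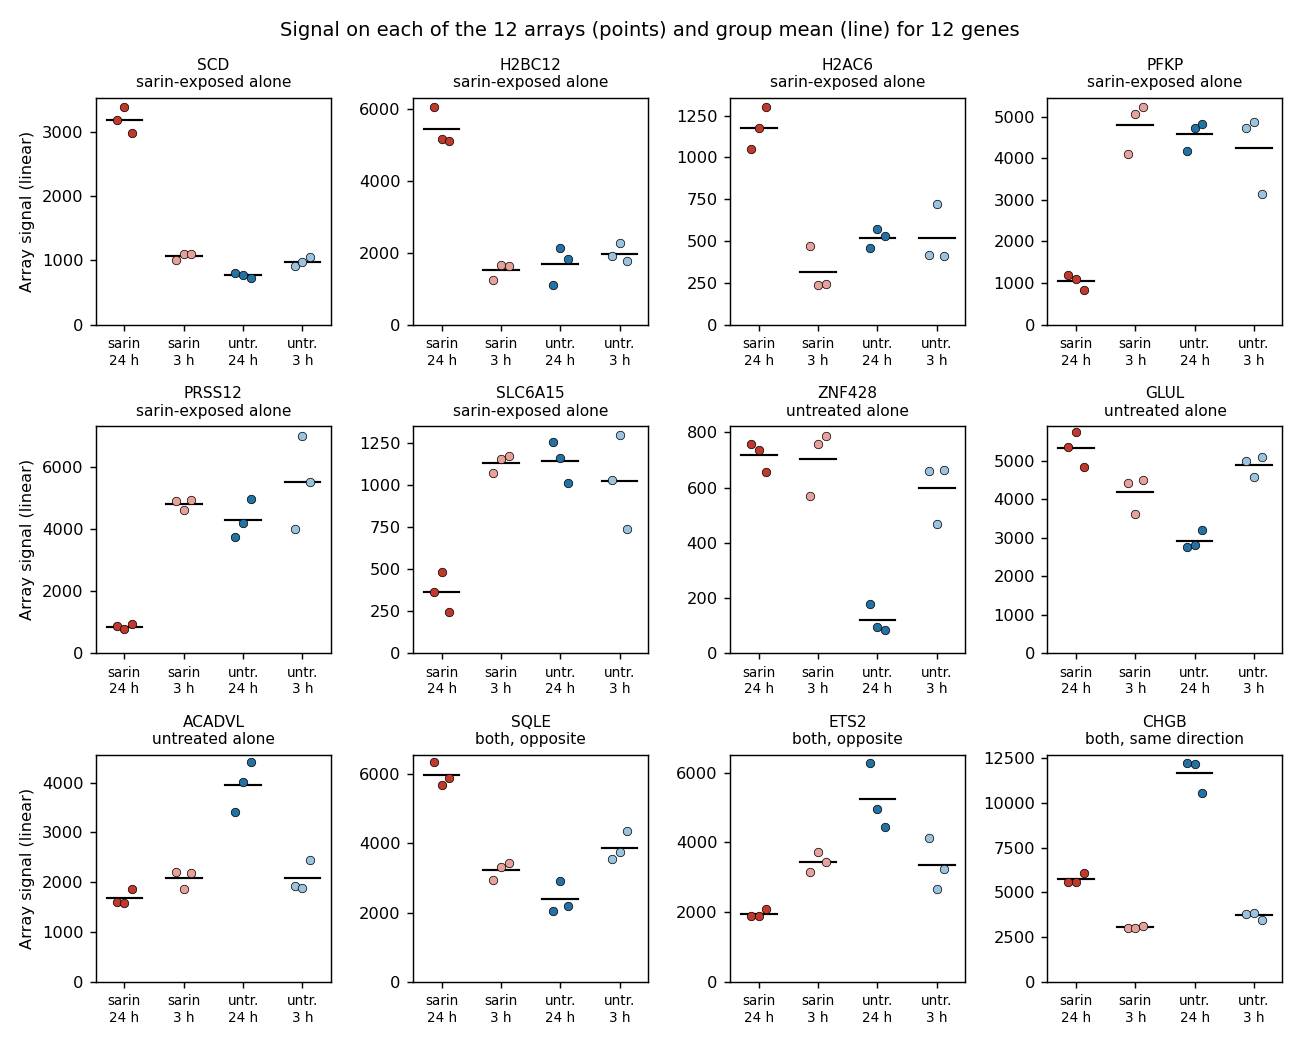
Deposited signal (y axis, linear, starting at 0) on each array for 12 genes, with 3 arrays for sarin-exposed cells and 3 for untreated cells at each of 24 h and 3 h, with a line at each group mean. In SCD, H2BC12, H2AC6, PFKP, PRSS12 and SLC6A15 the exposed arrays at 24 h stand apart, in ZNF428, GLUL and ACADVL the untreated arrays at 24 h do, and in SQLE and ETS2 the 2 conditions part in opposite directions.

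For 12 genes the difference arose with a called change in untreated cells and none in exposed ones. ZNF428, a zinc finger gene, was the clearest. Its signal was 758, 735 and 657 in sarin-exposed cells at 24 h and 571, 757 and 787 at 3 h, against 179, 94.2 and 85.1 in untreated cells at 24 h and 660.1, 468 and 664 at 3 h. The exposed arrays of the 2 times overlapped, and so did the exposed and untreated arrays at 3 h. In untreated cells at 24 h the probe set was not above background, taken from 27 unspiked bacterial probe sets, so the fold changes are bounds. Exposed cells at 24 h were at least 4.33-fold higher than untreated cells at 24 h, and untreated cells at 24 h were at least 3.58-fold lower than at 3 h. The fitted difference was 2.26 ± 0.38 (adjusted p = 0.00918), and with the GAPDH ratio as a covariate it was 1.70 and not called (adjusted p = 0.0843).

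GLUL, which encodes glutamine synthetase, had 5367, 5740.3 and 4848 in sarin-exposed cells at 24 h and 4419, 3625 and 4508 at 3 h, against 2754, 2807 and 3201 in untreated cells at 24 h and 4994, 4587 and 5085 at 3 h. Its change was 0.35 ± 0.13 in exposed cells (adjusted p = 0.0999) and -0.74 ± 0.13 in untreated cells (adjusted p = 0.00488). Of its other 2 probe sets 1 had the opposite sign, with differences of -0.12 and 0.16. With the GAPDH ratio as a covariate GLUL was at 1.01 (adjusted p = 0.0585). The co-chaperone gene DNAJA1 and SUPT4H1, a subunit of a transcription elongation factor, fell in untreated cells, with changes of -0.47 ± 0.13 and -0.63 ± 0.14, and their differences were 0.89 and 0.97. METTL13, a lysine methyltransferase gene, and CHMP5, of the ESCRT-III membrane complex, had differences of 1.10 and 1.05. The exposed cells had values above 0 for all 4, from 0.12 in CHMP5 to 0.48 in METTL13, that missed the threshold. Of the other 2 METTL13 probe sets 1 had the opposite sign, with differences of -0.2 and 0.39.

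The other 5 genes of this class rose in untreated cells, with no called change in exposed ones. ACADVL, the first enzyme of mitochondrial very-long-chain fatty acid oxidation, had 1597, 1580.0 and 1860.2 in sarin-exposed cells at 24 h and 2205, 1865 and 2192 at 3 h, against 3403, 4009 and 4415 in untreated cells at 24 h and 1919, 1891 and 2447 at 3 h. The effect was -1.22 ± 0.15 at 24 h and 0.01 ± 0.15 at 3 h. MRC2, an endocytic collagen receptor, SLC2A4RG, a transcription factor gene, and TRAF5, an adaptor of TNF receptors, rose by 0.80 ± 0.16, 0.79 ± 0.20 and 0.91 ± 0.16 in untreated cells. SDC1, the heparan sulphate proteoglycan syndecan, rose by 0.69 ± 0.15 in untreated cells, and its effect of -0.30 ± 0.15 at 24 h was not called (adjusted p = 0.196). The second MRC2 probe set had a difference of 0.18. ZNF428, GLUL, ACADVL and MRC2 passed in all 12 fits that left out 1 array, and the remaining 8 of these genes, HMGCS1 included, in 2 to 9 (highest adjusted p = 0.158, for CHMP5). With the GAPDH ratio as a covariate, ACADVL and METTL13 alone of the 12 were called.

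In 8 genes both conditions were called, in opposite directions. Besides SQLE and MSMO1, PIK3C2B, a class II phosphoinositide kinase gene, had 837, 604 and 957 in sarin-exposed cells at 24 h and 412, 308 and 349.6 at 3 h, against 155, 321 and 216 in untreated cells at 24 h and 427, 434 and 451 at 3 h. SNRPB2, a protein of the U2 splicing particle, changed by 0.59 ± 0.15 and -0.74 ± 0.15, and TMT1A, a thiol methyltransferase gene, by 0.67 ± 0.18 and -0.71 ± 0.18. ZNF652, another zinc finger gene, had effects of opposite sign at the times, 0.79 ± 0.21 at 24 h and -0.88 ± 0.21 at 3 h, where it missed the threshold (adjusted p = 0.191). Exposed and untreated arrays did not overlap at either time, exposed ones being the higher at 24 h and the lower at 3 h.

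ETS2 and NOTCH3 went the other way. ETS2, a transcription factor gene downstream of Ras signalling, had 1876, 1889 and 2101 in sarin-exposed cells at 24 h and 3162, 3711 and 3424 at 3 h, against 6289, 4959 and 4451 in untreated cells at 24 h and 4135, 2664 and 3248 at 3 h. At 3 h the groups overlapped, and at 24 h the exposed arrays were the lowest of the 12 and the untreated ones the highest. The difference was -1.46 ± 0.23 (adjusted p = 0.00709). NOTCH3, a Notch receptor gene, changed by -0.73 ± 0.22 in exposed and 0.86 ± 0.22 in untreated cells, and its second probe set had a difference of -0.07. NOTCH3 passed in 8 of the 12 fits that left out 1 array (highest adjusted p = 0.0641). PIK3C2B passed in 9 (highest adjusted p = 0.0555), and the other 6 genes of this class in all 12. SQLE, MSMO1, TMT1A and ETS2 were still called with the GAPDH ratio as a covariate, and the other 4 were not.

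The 4 genes called in both conditions with the same direction differed in how far they went. SGK1, a kinase gene that responds to serum and glucocorticoids, had 161, 177 and 210.1 in sarin-exposed cells at 24 h and 1269.9, 1325 and 1238 at 3 h, against 362, 414 and 668 in untreated cells at 24 h and 1090.3, 792 and 1095 at 3 h. It fell 6.54-fold in exposed cells and 2.08-fold in untreated cells. ZYX fell 4.42-fold and 1.47-fold, and SCARB2, a lysosomal membrane protein gene, 3.09-fold and 1.72-fold. ZYX passed in all 12 fits that left out 1 array, and SGK1 and SCARB2 in 6 and 3 (highest adjusted p = 0.0687 and 0.126). Of the 4, ZYX alone was called with the GAPDH ratio as a covariate.

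CHGB, a granin stored in secretory granules, was the 1 gene that rose in both conditions and rose less in exposed cells. Its signal was 5589.7, 5589 and 6069.7 in sarin-exposed cells at 24 h and 3034, 2980.2 and 3112 at 3 h, against 12238, 12199.8 and 10566 in untreated cells at 24 h and 3786, 3860.0 and 3482 at 3 h. In untreated cells at 48 h it was 3655 to 3831, back near the 3 h level. Exposed cells at 24 h thus lay below untreated cells of 24 h and above those of 48 h (by 0.61 ± 0.11, adjusted p = 0.00136 in a fit of 15 arrays). The call for the difference (adjusted p = 0.0497) held in 2 of the 12 fits that left out 1 array (highest adjusted p = 0.155).

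Untreated cells at 48 h gave the later level of the 24 genes with a called untreated change. By their means, 16 of the 24 lay nearer to their 24 h level at 48 h and 8 nearer to that of 3 h. In a fit of 15 arrays, 5 of the 24 passed for untreated cells at 48 h against 3 h, where 0.655% of all genes did, and CHGB alone passed for 48 h against 24 h, where 0.571% did. The 5 were SQLE, HMGCS1, ZYX, SDC1 and ZNF428. At 48 h SQLE and HMGCS1 had 106% and 110% of their 24 h change in untreated cells. MSMO1 and SGK1 had 7.13% and 20.1%, and their difference between 48 h and 24 h missed the threshold (adjusted p = 0.126 and 0.0862). Exposed cells at 24 h differed from untreated cells at 48 h, in the direction seen against untreated cells at 24 h, with a called difference in 18 of the 24, against 15% of all genes called either way. That count reuses the exposed arrays by which the genes were chosen. The comparisons of untreated cells at 48 h with 3 h and 24 h likewise reuse the untreated arrays that chose them. All these counts are descriptions.

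**Figure D4:**
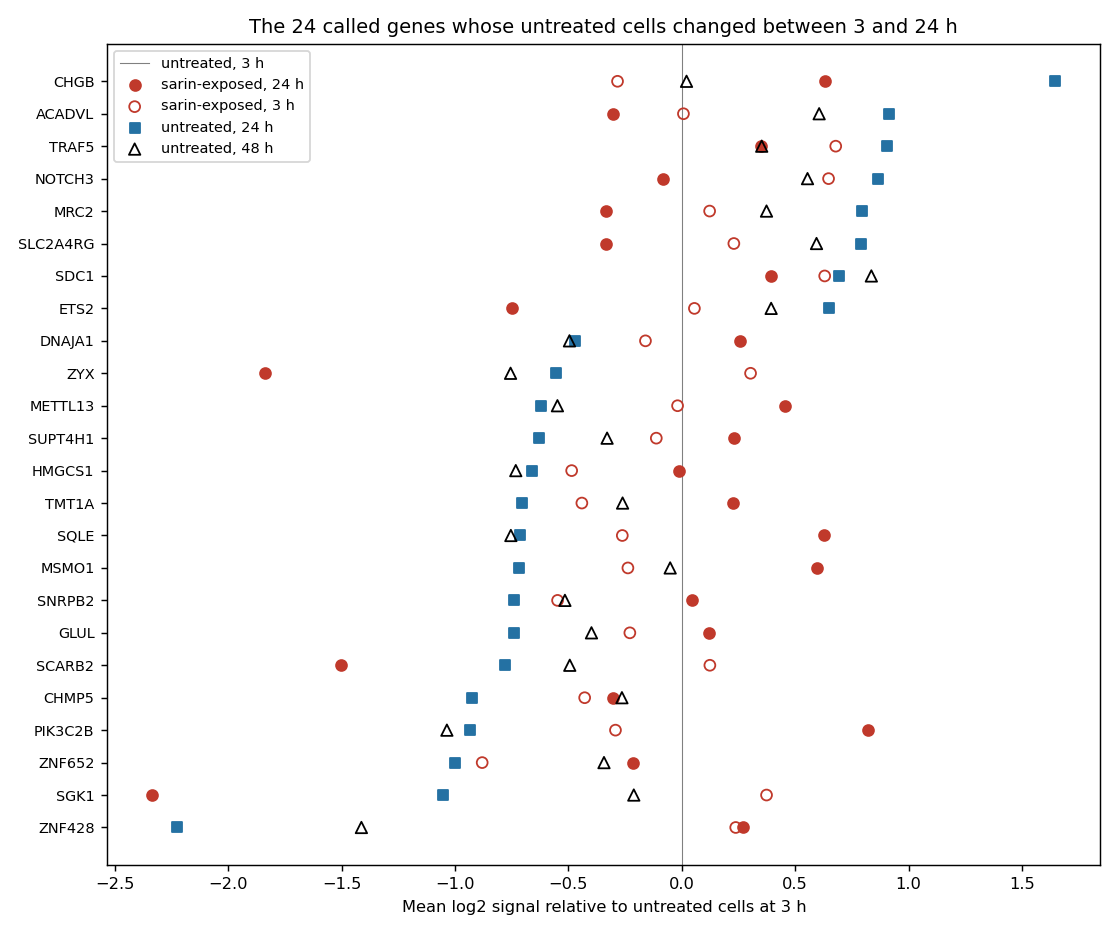
Mean log2 signal relative to untreated cells at 3 h (x axis) of the 24 called genes with a called untreated change, in sarin-exposed cells at 24 h and 3 h (filled and open red circles) and in untreated cells at 24 h and 48 h (blue squares and open triangles). The triangles of CHGB, MSMO1 and SGK1 lie nearer to the line of 3 h than to the squares, a difference from 24 h that passed the test for CHGB alone, and those of SQLE and HMGCS1 lie beside the squares.

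A gene can change over time in both conditions with little difference between them. RECK, a membrane inhibitor of matrix metalloproteinases, had 2999.7, 3419.8 and 4077 in sarin-exposed cells at 24 h and 959.6, 1524 and 926 at 3 h, against 11203, 7575 and 5429.7 in untreated cells at 24 h and 2424, 2118 and 2916 at 3 h. Exposed cells were lower by a similar amount at 24 h (-1.15 ± 0.23) and at 3 h (-1.14 ± 0.23), and both conditions rose, by 1.64 ± 0.23 and 1.64 ± 0.23. The difference was -0.01 ± 0.33 (adjusted p = 0.996).

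APP and CBFA2T2 had a called change in untreated cells only, but the test of the difference missed the threshold. APP, the amyloid precursor gene, had 4587, 4519.8 and 3580.1 in sarin-exposed cells at 24 h and 4536, 4349 and 3742 at 3 h, against 3473, 4863 and 3829 in untreated cells at 24 h and 6117, 6691 and 9636 at 3 h, a difference of 0.87 ± 0.25 (adjusted p = 0.11). CBFA2T2, a corepressor gene, had 434, 68.9 and 115 in untreated cells at 3 h, a wide spread, and a difference of -1.56 ± 0.58 (adjusted p = 0.205). The GDNF receptor gene RET had a difference of -0.73 ± 0.21 (adjusted p = 0.111). In all, 356 genes had a called change in untreated cells alone and 12 of them (3.37%) a called difference, and of 667 called in exposed cells alone it was 52 (7.8%).

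Of 23 genes of acetylcholine signalling and organophosphate binding, 0 were called in either direction, a count near the 1.06% of all genes, and the median was -0.17. BCHE, which encodes butyrylcholinesterase, was at 0.02 ± 0.24, the nicotinic receptor gene CHRNA3 at 0.66 ± 0.26 and the muscarinic receptor gene CHRM3 at -0.59 ± 0.28 (adjusted p = 0.983, 0.23 and 0.319). PNPLA6, the neuropathy target esterase gene, rose by 0.76 ± 0.15 in untreated cells, with 0.17 ± 0.15 in exposed cells and a difference of -0.59 ± 0.21 (adjusted p = 0.182). ACHE, TH and FOS lay below the level filter. ACHE had signals of 45.3, 37.9 and 109 in sarin-exposed cells at 24 h and 203, 41.4 and 203 in untreated cells at 24 h, and these overlapped. FOS, an immediate early gene, was at 129 to 261 in untreated cells at 3 h, where 1 of the 3 arrays was at background. It was at 21.4 to 55.4 on the other 9 arrays, below the background limit of 97 to 182.9.

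The remaining lists are set against the 1.06% of all genes called, and counts of 0 or 1 in them are near that share. Of 31 genes listed as cytosolic and mitochondrial chaperones 2 had a positive difference, SERPINH1 and DNAJA1, and 0 a negative one, with a median of 0.37. SERPINH1, the collagen chaperone, belongs to the endoplasmic reticulum and not to those compartments. The stress genes of the endoplasmic reticulum and of ATF4 had 0 of 38 called. Of these 38, 11 rose and 2 fell in exposed cells, against 5.68% and 5.67% of all genes. In untreated cells 4 rose and 0 fell, against 3.97% and 3.05%. HSPA5, the chaperone of that compartment, was at 0.71 ± 0.26 (adjusted p = 0.193). Splicing factors had 1 of 60 called (SNRPB2), the proteasome 1 of 34 (PSMC2), the neuronal cytoskeleton and axonal transport list 1 of 37 (DYNC1H1) and synaptic genes 1 of 21 (GLUL), all positive. The noradrenergic and granule list had 1 of 28 (CHGB) and the protease and APP processing list 1 of 29 (PRSS12), both negative. There were 0 calls among 22 p53 and cell death genes, 22 immediate early genes, 60 oxidative phosphorylation genes, 26 calcium signalling genes, 29 oxidative stress genes and 2 glial markers. For single members, CDKN1A was at 0.73 ± 0.33 and HMOX1 at -0.35 ± 0.46, neither past the threshold.

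Cytosolic ribosomal protein genes had values above 0 in 51 of 51 tested, with a median of 0.42 and 0 called. Their median change was 0.18 in sarin-exposed and -0.30 in untreated cells. Their median effect was 0.10 at 24 h and -0.36 at 3 h. Under quantile normalization the median difference was 0.00, and with the GAPDH ratio as a covariate it was -0.20, so no direction is given for this list.

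**Figure D5:**
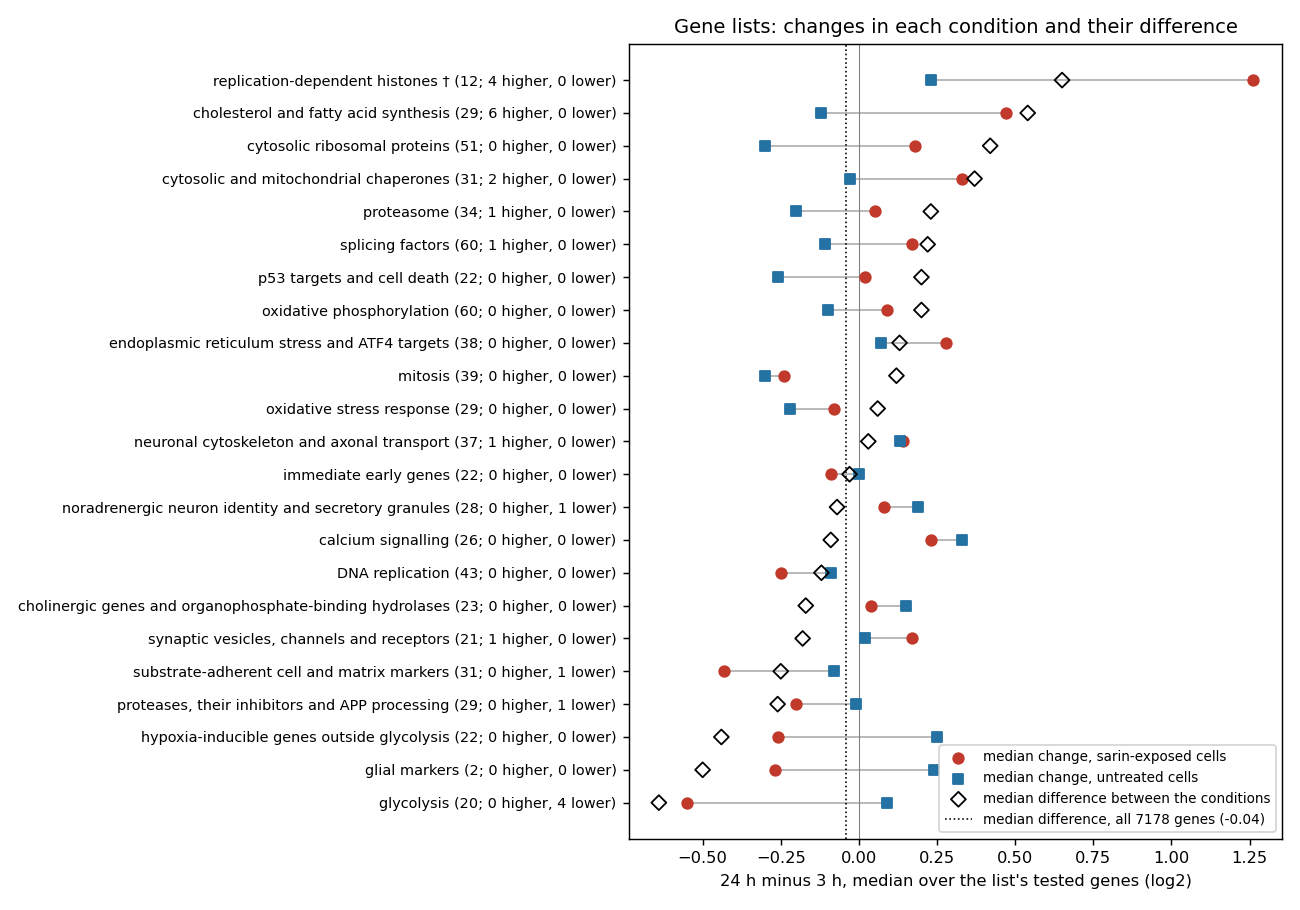
Median change between 3 and 24 h (x axis, log2) of 23 gene lists in sarin-exposed cells (red circles) and untreated cells (blue squares), with the median difference between the conditions (open diamonds), the number of genes tested and the numbers called in brackets. The lipid synthesis list, at 0.54, and glycolysis, at -0.64, lie on opposite sides of the dotted line of all genes at -0.04, and the histone list, marked with a dagger, was chosen after the values were seen.

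Which class a gene falls in depends on the scaling of the arrays. Under quantile normalization 109 genes were called, 67 with a change in exposed cells alone and 26 in untreated cells alone. When arrays were centred on their median, the median change of all genes in untreated cells moved to -0.25 and 143 genes were called, 129 higher and 14 lower, with 49 and 75 in those classes. Scaled to the hybridisation spike-ins, all genes fell by a median of 0.70 in exposed cells and 0.71 in untreated cells, 14 of the 64 exposed changes and 2 of the 24 untreated ones turned sign, and 3 genes were called. Taken relative to the median of all genes, 0 of the 64 and 0 of the 24 turned sign under any of the 3. Median centring shifts all genes of an array alike, and spike-in scaling nearly so. For these scalings that outcome was thus fixed, or nearly fixed, in advance, and only quantile normalization could show otherwise. The sign of the difference itself held for all 76 genes in each alternative that tested them. The 76 were chosen by this contrast on the same arrays, so the held signs are a description. H2BC12, PRSS12 and PFKP were called in each alternative that had more than 1 array in every group.

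Single arrays moved the count of 76 in both directions. Without replicate 2 or 3 of untreated cells at 3 h the fit called 233 and 132 genes, and with replicate 1 alone kept in that group, an alternative chosen after seeing the data, 165 genes, 97 of them in exposed cells alone and 57 shared with the 76. With 1 array kept, the spread in that fit came from the other groups alone, so its counts are a description. Leaving out 1 of the 10 arrays other than replicates 2 and 3 of untreated cells at 3 h gave 32 to 69 calls. The lowest came without sarin-exposed replicate 1 at 24 h or replicate 2 at 3 h. Without replicate 3 of sarin-exposed cells at 3 h it was 34, and the change in exposed cells was called for 377 genes, against 815. A total of 26 genes passed in all 12 such fits.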

How the data were processed

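Total RNA of SH-SY5Y cells was measured on Affymetrix arrays, 3 per group. The values deposited are 1 intensity per probe set on a linear scale, made by the authors with MAS5 per the submitters' processing notes. No version, scaling target or detection call was given in the labels or the table. Probe sets with 1 gene symbol were used and each of 11963 genes was represented by its brightest probe set. The upper 60% by mean log2 signal were tested, 7178 genes at a mean signal of 301 or more.

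Values were taken as log2(signal + 16), so fold changes of dim genes are understated, and fitted with limma 3.58.1 in R 4.3.3 (12 arrays, 4 groups, trended moderation), with Benjamini-Hochberg adjustment over all 7178 genes. The contrast was (exposed minus untreated at 24 h) minus (exposed minus untreated at 3 h), together with the change in each condition and the effect at each time. Arrays, 3 per group, limit the precision: the median standard error was 0.292 for the difference and 0.207 for a change. The script was tested on simulated data.

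Same-numbered arrays correlated at -0.183 to 0.23 in their deviations from group means, over 0.1 in 4 of 18 pairs, and were not treated as pairs. The members, gene lists and comparisons were chosen with earlier results of these data known. Named genes were, by rule, up to 8 of largest difference in each class and direction, up to 5 of smallest p in each list, and 21 genes named at any level. Promoter stretches are RefSeq's on GRCh38.p14. Alternatives changed the pseudocount, the level filter, the scaling, the summary of probe sets, the moderation, the array weights or the arrays fitted, or added a replicate block or the GAPDH ratio as a covariate, and 1 was chosen after seeing the data, with untreated cells at 3 h kept at replicate 1.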

Additional observations from a re-analysis of the deposited data

Results flagged for a closer look

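The 76 genes above were called because the sarin effect differed between 24 and 3 h by a test of that difference. The differences of the named ones, in log2 units, are gathered here by class.

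Where sarin-exposed cells alone had a called change, positive differences were 2.11 for H2BC12, 1.91 for H2BC12L, 1.91 for SCD, 1.85 for H2AC6, 1.53 for GINS4, 1.32 for H2BC5, 1.30 for ENY2, 1.30 for FLRT3, 1.30 for DYNC1H1, 1.29 for ACAT2, 1.25 for SERPINH1, 1.21 for PSMC2 and 1.07 for HSD17B7. Negative ones were -2.33 for PFKP, -2.14 for PRSS12, -1.83 for SLC6A15, -1.83 for RNF126, -1.70 for BACH2, -1.59 for MACROD1, -1.51 for CDH11, -1.51 for AK4, -1.46 for NID1, -1.41 for PTPRF, -1.16 for POM121C, -1.11 for ENO2, -1.09 for GPI, -1.05 for COL6A2 and -0.97 for ALDOC.

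Where untreated cells alone had one, the differences were 2.26 for ZNF428 (not above background in untreated cells at 24 h), 1.14 for HMGCS1, 1.10 for METTL13, 1.09 for GLUL, 1.05 for CHMP5, 0.97 for SUPT4H1, 0.89 for DNAJA1, -0.93 for SDC1, -1.23 for ACADVL, -1.23 for TRAF5, -1.25 for MRC2 and -1.35 for SLC2A4RG. Where both moved in opposite directions they were 2.05 for PIK3C2B, 1.67 for ZNF652, 1.60 for SQLE, 1.55 for MSMO1, 1.37 for TMT1A, 1.33 for SNRPB2, -1.46 for ETS2 and -1.59 for NOTCH3. Where both moved the same way they were -1.66 for SGK1, -1.59 for ZYX, -0.85 for SCARB2 and -0.73 for CHGB. No group had enough arrays for a test of single arrays that stand apart.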

How the results depend on the processing

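Signs of the difference held in all 2041 gene values under the alternatives, with 1387 still past the threshold and 654 not. The number of genes called for the difference (76) was 143 when arrays were centred on their median, 3 when scaled to the spike-ins, 49 without a trend in the moderation, 370 with array weights, 129 with 15 arrays in the fit and 165 with untreated cells at 3 h kept at replicate 1. The change in exposed cells (815 genes) gave 2694 with the spike-ins, 2170 with array weights and 1426 with replicate 1 kept. That in untreated cells (504) gave 1442 with median centring, 3005 with the spike-ins, 772 with array weights and 839 with the GAPDH ratio as a covariate. Genes called in exposed cells alone (52) numbered 1 with the spike-ins, 34 without a trend, 236 with array weights, 87 with 15 arrays and 97 with replicate 1 kept. Those called in untreated cells alone (12) numbered 20 with a filter at the upper 40%, 26 with quantile normalization, 75 with median centring, 0 with the spike-ins, 7 with the mean of all probe sets, 76 with array weights, 22 with 15 arrays, 7 with the GAPDH ratio, 42 with replicate 1 kept, and 6 by a size ratio of 2. The causes were not tested. As the 76 genes were chosen by this contrast on the same arrays, the signs that held are a description. In the fit with replicate 1 kept, that group had 1 array and the spread came from the other groups alone. Leaving out 1 array gave 32 to 233 genes for the difference, 377 to 1180 for exposed cells, 195 to 850 for untreated cells, 19 to 121 for exposed cells alone and 8 to 72 for untreated cells alone. The replicate block called 77 genes, 67 of them shared with the 76; the numbers are not pairs. Median centring put 90.2% of calls higher, against 51.3%, and moved the median difference of all genes to 0.19. Signals under the background limit of 97 to 182.9 limit what can be said of dim genes.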
